A study of Homo sapiens with 27 samples.

Results

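The expression of 37 genes of glycolysis and the hypoxia response was examined by RNA-seq in invasive lobular carcinoma (ILC) cells that had adapted to growth without estrogen. The 37 genes were taken by name from the 60619 genes of the count table, through their Ensembl identifiers. They were 3 glucose transporters, 14 enzymes of the glycolytic chain, 3 bifunctional PFKFB enzymes, the lactate dehydrogenases LDHA and LDHB with the monocarboxylate transporter SLC16A1, 4 pyruvate dehydrogenase kinases with 2 subunits of their target enzyme, the hypoxia factors HIF1A and EPAS1, and 6 genes known as targets of these factors. The series held 27 libraries in 9 groups of 3, from the estrogen receptor-positive ILC cell lines MM134 (MDA-MB-134VI) and SUM44. The MM134 groups were the parental cells, deprived of hormone for 3 days in IMEM with charcoal-stripped serum, and the long-term estrogen-deprived (LTED) variants named A, B, D and E, which had been kept in that medium for months and were derived separately. The SUM44 groups were LTED-A and LTED-B and 2 cultures of parental cells, SUM44PE and SUM44F, both hormone-deprived for 3 days as well. SUM44F is SUM44PE that had been grown in DMEM:L-15 with full serum, and it is the parental culture of the study for SUM44. Each variant is 1 derivation, its 3 libraries come from wells of that culture, and time in culture and medium history cannot be told apart from LTED itself, so the p-values below measure only the spread between such wells.

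Glycolysis turns glucose into pyruvate in the cytosol. Glucose enters through SLC2A transporters, hexokinase traps it as glucose 6-phosphate, and phosphofructokinase commits it to the pathway under the control of fructose 2,6-bisphosphate, whose level the PFKFB enzymes set. Pyruvate then either enters the mitochondrion, where the pyruvate dehydrogenase complex converts it and the PDK kinases hold that complex back, or is reduced to lactate, which leaves or enters the cell through SLC16A1. When oxygen is short, the alpha subunits encoded by HIF1A and EPAS1 escape the prolyl hydroxylases of the EGLN family and activate many of these genes along with VEGFA, CA9, ADM, NDRG1, BNIP3 and EGLN3 itself. HIF1A and EPAS1 are controlled mostly at the level of their protein, which these data do not measure. Many tumor cells keep glycolysis high in the presence of oxygen, and several of its enzymes exist as isozymes from separate genes.

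Levels below are counts scaled by TMM to a common library size (CPM), and totals of 28583554 to 134882175 counts per library (median 44018412) lay behind them. For SUM44 LTED-A, the gap between replicates 2 and 3 was smaller than counting noise, with a chi-square of 0.312 per degree of freedom against 2.35 to 58.3 for the other 26 replicate pairs, so they were counted as 1 sample and that variant has n = 2. The 5 luminal markers were ESR1, GATA3, FOXA1, KRT8 and KRT18. They summed to 1985 to 2044 CPM in MM134 parental cells, 2516 to 3175 CPM in MM134 variants and 4542 to 6759 CPM in SUM44. Single markers did not all move with the sum. In MM134, ESR1 was below parental cells in LTED-A and -E and above them in LTED-B and -D, while KRT8 was above in every variant. In SUM44, ESR1 was above SUM44F in both variants, and KRT8 was below SUM44F in LTED-B. SUM44F replicate 1 stood apart, with 231 CPM over 3 fibroblast markers against 8 and 6.56 CPM in replicates 2 and 3, and with 4.6 CPM over 4 immune markers against 0.41 and 0.467 CPM. That library was also the highest of the 3 SUM44F libraries for 25 of the 37 genes, whereas SUM44F replicate 3 was the lowest for 31 of 37. The sum of 3 endothelial markers (PECAM1, CDH5 and VWF) was higher in all SUM44F libraries (25.8 to 40.5 CPM) than in SUM44PE (10.8 to 11.1 CPM). It was 2.8 to 4.51 CPM in the SUM44 variants, so this difference moved with every SUM44F comparison. Most of the SUM44F sum was PECAM1 (27.3, 26.8 and 21.7 CPM), with VWF at 12.4, 4.35 and 4.02 CPM. CDH5 was at 0.824, 0.117 and 0.089 CPM there, against 0.434, 0.169 and 0.0252 CPM in SUM44PE. In MM134 the endothelial markers summed to 1.46 to 2.72 CPM in parental cells and 1.62 to 5.09 CPM in the variants. The fibroblast markers summed to 19.5 to 28.7 CPM and 7.07 to 20.6 CPM. The part of these differences in the results was not tested, and calls that changed without SUM44F replicate 1 or 3 are given beside the gene. In bulk RNA, fewer cells of a type and less RNA per cell cannot be told apart.

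Promoter sequences from RefSeq (GRCh38.p14, 250 bases before to 50 bases after the annotated start) were matched for 32 of the 37 genes, and SLC2A3, PFKFB2, SLC16A1, VEGFA and NDRG1 had no match. The letters searched, on both strands, were ACGTG and GCGTG, the core of the element that HIF factors bind. They overlap the E-box CACGTG, which holds ACGTG on both strands. At least 1 match was present in 23 of the 32 promoters (71.9%), against 17012 of 35116 promoters (48.4%) in the whole table. ACGTG was found in 37.5% of the members' promoters against 21.4% of all, GCGTG in 56.2% against 36.5%, and CACGTG in 15.6% against 7.26%. Genes are named as called here when they differed over 1.5-fold from MM134 parental cells or SUM44F at an edgeR adjusted p below 0.001. Of the 19 matched genes called in at least 1 LTED variant 14 held a match, and of the 13 called in none 9 did. Below, 4 promoters are printed 5′ to 3′ along the gene's strand with every match in capitals. CA9, EPAS1 and EGLN3 are shown because they were among the genes that rose in all 4 MM134 variants. LDHA is shown because its promoter has 6 matches while it was called in no variant. CA9 lies at chr9:35673678-35673977 (plus strand), EPAS1 at chr2:46297157-46297456 (plus strand), EGLN3 at chr14:33951025-33951324 (minus strand) and LDHA at chr11:18394313-18394612 (plus strand).
CA9: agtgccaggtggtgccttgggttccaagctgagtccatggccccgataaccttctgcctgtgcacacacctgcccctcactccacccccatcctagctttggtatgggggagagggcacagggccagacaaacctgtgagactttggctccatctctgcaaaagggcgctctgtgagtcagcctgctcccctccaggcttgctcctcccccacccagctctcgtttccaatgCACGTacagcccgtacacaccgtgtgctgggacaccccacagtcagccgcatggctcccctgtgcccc
EPAS1: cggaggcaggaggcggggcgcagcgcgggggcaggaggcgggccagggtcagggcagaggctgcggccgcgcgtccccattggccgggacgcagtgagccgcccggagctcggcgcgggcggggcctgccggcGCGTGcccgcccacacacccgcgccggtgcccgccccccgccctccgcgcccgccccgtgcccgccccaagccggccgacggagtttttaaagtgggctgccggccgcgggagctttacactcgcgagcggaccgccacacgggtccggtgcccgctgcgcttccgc
EGLN3: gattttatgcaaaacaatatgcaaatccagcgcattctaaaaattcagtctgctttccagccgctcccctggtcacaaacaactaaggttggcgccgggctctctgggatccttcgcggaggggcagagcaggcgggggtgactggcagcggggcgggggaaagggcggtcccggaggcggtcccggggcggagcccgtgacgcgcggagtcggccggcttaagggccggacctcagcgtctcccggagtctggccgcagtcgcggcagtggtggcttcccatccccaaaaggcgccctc
LDHA: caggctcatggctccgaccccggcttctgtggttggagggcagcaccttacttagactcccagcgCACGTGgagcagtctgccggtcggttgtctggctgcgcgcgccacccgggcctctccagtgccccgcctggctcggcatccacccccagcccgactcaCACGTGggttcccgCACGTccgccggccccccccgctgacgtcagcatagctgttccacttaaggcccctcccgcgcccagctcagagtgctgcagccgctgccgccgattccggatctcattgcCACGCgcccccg
The CA9 and EPAS1 windows held 1 match each and the EGLN3 window none, which says only that these letters are not in that window. Matches were as frequent as 6 in the windows of LDHA, BNIP3 and PDHB, 5 in ALDOC and 4 in PGK1 and PDHA1. Of these 6 genes, ALDOC was called in 4 variants and the other 5 in none, which does not mean that they were unchanged. In all 4 MM134 variants, the libraries of LDHA and PGK1 lay above the parental libraries and those of PDHB below. LDHA and BNIP3 lay below SUM44F in both SUM44 variants. These shifts stayed under the 1.5-fold limit. A match is a description of the sequence and not a site that was shown to be bound.

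In MM134, 15 to 17 of the glycolysis and hypoxia genes were called in each variant, and 14 members rose, or fell, in 3 or more of them. A gene was called when it differed by more than 1.5-fold from the parental cells at an edgeR adjusted p below 0.001. In LTED-A, 11 of the 36 tested genes rose and 6 fell, where 10.5% and 9.82% of all tested genes did. In LTED-B, 9 rose and 6 fell, beside 8.11% and 7.75% of all genes. In LTED-D, 10 rose and 5 fell, beside 9.63% and 7.95%. In LTED-E, 8 rose and 7 fell, beside 8.71% and 10.3%. The median log2 fold change of the 36 genes was 0.20, -0.01, 0.19 and 0.12 in LTED-A, -B, -D and -E, and that of all genes was -0.01, 0.02, -0.03 and 0.02. The share of members that rose was 22.2% to 30.6% over the variants and the share that fell 13.9% to 19.4%. The 4 comparisons share the same 3 parental libraries.

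In at least 3 of the 4 MM134 variants, 10 members rose (SLC2A10, HK2, PFKP, GAPDH, ENO1, PDK1, PDK4, EPAS1, CA9 and EGLN3), where 6.66% of all genes rose by that rule, and 4 fell (ENO2, PFKFB3, SLC16A1 and NDRG1), where 6.83% did. PFKP, EPAS1, CA9 and EGLN3 rose and ENO2, SLC16A1 and NDRG1 fell in all 4. The share of all genes called in all 4 was not computed, and the comparisons share the same parental libraries.

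In SUM44, 9 and 10 members were called in LTED-A and -B. In SUM44 LTED-A, 5 of 34 tested members rose and 4 fell against SUM44F, where 6.39% and 7.28% of all genes did. In SUM44 LTED-B, 4 rose and 6 fell, beside 8.69% and 8.57% of all genes. Their medians were 0.08 and 0.03, and those of all genes -0.06 and -0.09. ALDOC and PDK3 rose in both variants (3.87% of all genes rose in both), and SLC2A3, SLC16A1 and EGLN3 fell in both (4.75% fell in both). SLC16A1 was the only member called in the same direction in all 6 variants. Against MM134 parental cells and SUM44F, 13 members were called in no variant: HK1, GPI, PFKL, TPI1, PGK1, PGAM1, PKM, LDHA, LDHB, PDK2, PDHA1, PDHB and BNIP3. Among them, LDHB was too low to be tested in any of these comparisons, and PDK4 and CA9 were too low in SUM44.

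**Figure D1:**
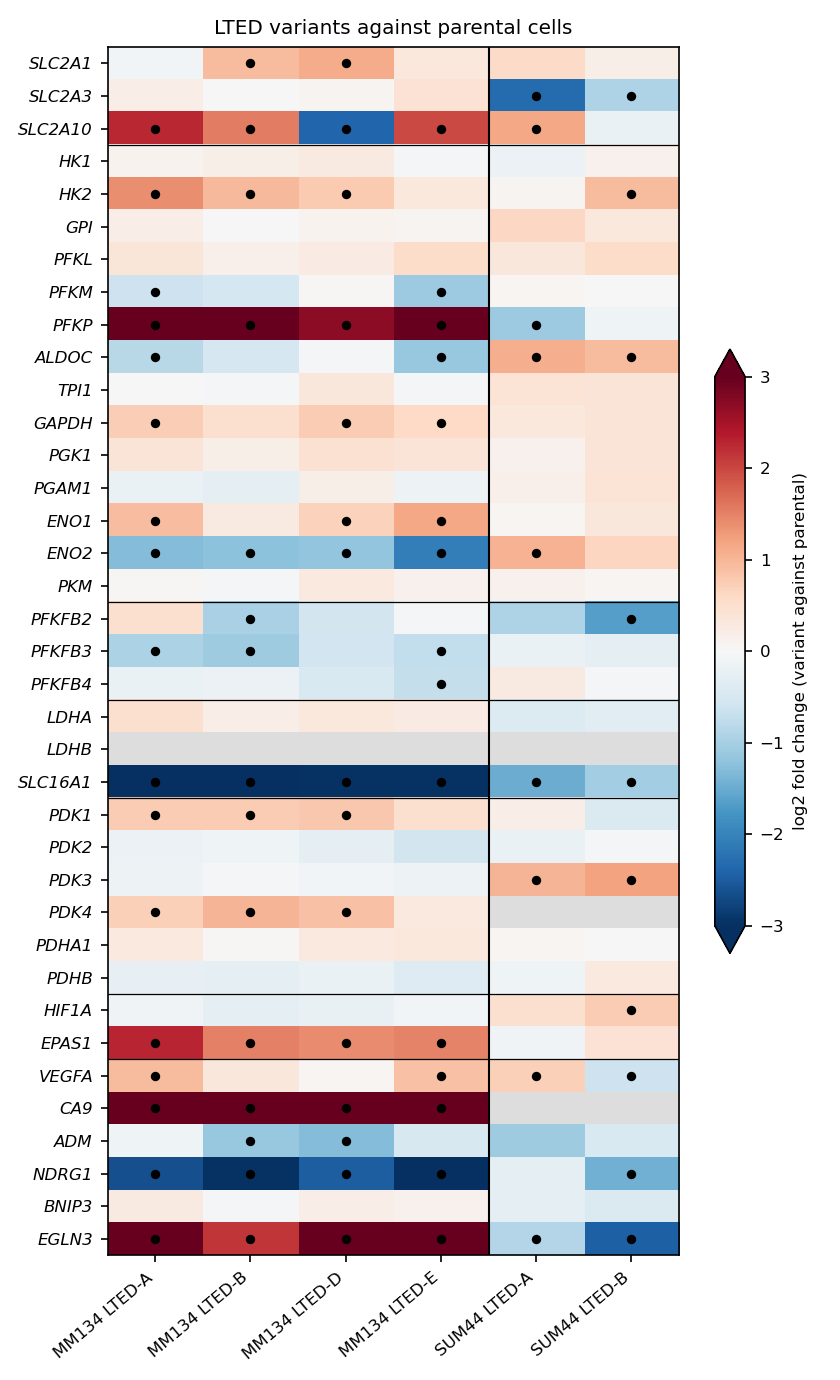
Log2 fold change of each member (rows, in the order of their roles) in the 4 MM134 variants against MM134 parental cells and in the 2 SUM44 variants against SUM44F, on a color scale cut at -3 and 3. Dots mark called changes and grey cells mark genes too low to be tested; SLC16A1 has a dot in all 6 columns, and EGLN3 is red in MM134 and blue in SUM44.

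Among the glucose transporters, SLC2A1 (GLUT1, the common basal glucose transporter) was the most abundant in MM134. Its level was 381, 362 and 354 CPM in the 3 parental libraries, 682, 730 and 721 CPM in LTED-B and 763, 789 and 793 CPM in LTED-D. The libraries of LTED-B and LTED-D lay above all parental libraries without overlap. SLC2A1 rose by 0.96 ± 0.03 (log2, SE) in LTED-B and by 1.11 ± 0.03 in LTED-D (edgeR adjusted p = 1.41e-14 and 1.78e-15), beside log2 values of -0.08 for LTED-A and 0.31 for LTED-E. In SUM44 it was low, at 52.9 ± 9.47 CPM in SUM44F (SD, n = 3), and was called in neither variant. Without SUM44F replicate 1, its log2 fold change in SUM44 LTED-A went from 0.58 to 0.69 and was called (edgeR adjusted p = 0.000879).

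SLC2A10 (GLUT10), a transporter found mostly on internal membranes, was the member that moved in opposite directions within MM134. It was at 14.3, 14.7 and 14.4 CPM in the parental libraries and at 70, 70.4 and 70 CPM in LTED-A. LTED-B had 42.6, 39.4 and 42.8 CPM and LTED-E had 56.9, 55.7 and 58 CPM. In LTED-D, by contrast, it was at 2.71, 2.69 and 2.88 CPM, below every other library of the series. The fold changes were 4.83 up in LTED-A, 2.88 up in LTED-B and 3.96 up in LTED-E, and 5.17 down in LTED-D (log2 -2.37 ± 0.05, edgeR adjusted p = 7.29e-17). In SUM44 its level was higher from the start, at 153 ± 1.25 CPM in SUM44F. It rose to 332 and 349 CPM in SUM44 LTED-A (log2 1.15 ± 0.07, edgeR adjusted p = 7.62e-07), whereas SUM44 LTED-B had 130, 137 and 130 CPM. The median log2 fold change of its neighbors on the chromosome (20 genes on each side with a mean of at least 5 CPM) was 0.37 in SUM44 LTED-A and -0.02 in MM134 LTED-D.

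SLC2A3 (GLUT3), a high-affinity glucose transporter, was near 1 CPM in all MM134 libraries (0.678 to 1.35 CPM) and was called in none of the variants. In SUM44F it was at 9.48, 7.93 and 7.72 CPM. SUM44 LTED-A had 1.73 and 1.64 CPM and SUM44 LTED-B 4.49, 4.37 and 4.40 CPM, all below the SUM44F libraries. It fell in both, at -2.31 ± 0.15 (LTED-A) and -0.92 ± 0.12 (LTED-B) on the log2 scale (edgeR adjusted p = 8.73e-07 and 0.000117). The LTED-B call was lost without SUM44 LTED-B replicate 2 (adjusted p = 0.00121) or replicate 3 (adjusted p = 0.00118). SUM44PE, the other parental culture, had 3.58, 3.76 and 4.56 CPM, in the range of LTED-B.

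Of the 14 glycolytic enzymes, those of the middle and lower chain that most cells express highly moved little, and the changes lay in isozymes and in GAPDH and ENO1. GAPDH, which makes 1,3-bisphosphoglycerate, was the most abundant member. It was at 1633, 1657 and 1661 CPM in MM134 parental cells. LTED-A had 2635, 2696 and 2940 CPM, LTED-B 2280, 2322 and 2344 CPM, LTED-D 2698, 2744 and 2852 CPM and LTED-E 2408, 2426 and 2543 CPM. All 12 variant libraries were above the parental libraries. GAPDH rose 1.66-fold in LTED-A, 1.69-fold in LTED-D and 1.5-fold in LTED-E. LTED-B missed the 1.5-fold limit at 1.41-fold. The LTED-E value sat at that limit, and its call was lost without MM134 parental replicate 1 or without LTED-E replicate 3 (log2 0.58 and 0.57). In LTED-D, the median log2 fold change of 40 neighbors of GAPDH was 0.37, beside 0.76 for GAPDH.

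ENO1, the widely expressed enolase that makes phosphoenolpyruvate, was at 512, 517 and 528 CPM in MM134 parental cells. It was at 957, 986 and 1026 CPM in LTED-A, at 820, 853 and 844 CPM in LTED-D and at 1137, 1140 and 1151 CPM in LTED-E. ENO1 rose 1.90-fold, 1.63-fold and 2.22-fold in these variants and was 1.21-fold higher in LTED-B. ENO2, the enolase known from neurons, went the other way. Its parental libraries had 82.9, 85.4 and 81.4 CPM, whereas LTED-A had 33.2, 34 and 35.4 CPM, LTED-B 33.7, 36.5 and 35.6 CPM, LTED-D 35.9, 34.4 and 37.8 CPM and LTED-E 19.2, 19.6 and 19.8 CPM. ENO2 fell in all 4 variants, with log2 fold changes of -1.29, -1.24, -1.19 and -2.08, each ± 0.04 (largest edgeR adjusted p = 6.33e-15). In SUM44 LTED-A it rose, from 10.8, 9.14 and 7.68 CPM in SUM44F to 19.4 and 18.3 CPM (log2 1.04 ± 0.13, edgeR adjusted p = 0.000116). That call was lost without SUM44 LTED-A replicate 1 (log2 1.04, adjusted p = 0.00169), where the 1 remaining sample is assumed to vary like the other groups, here and below. SUM44 LTED-B had 13.9, 14.7 and 14.3 CPM (log2 0.64 ± 0.12, edgeR adjusted p = 0.00134), which was called without SUM44F replicate 1 (log2 0.77, adjusted p = 0.000336).

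Hexokinase and phosphofructokinase also showed isozyme-specific changes. HK2, the inducible hexokinase, was at 42.8, 43.3 and 36.8 CPM in MM134 parental cells. LTED-A had 105, 107 and 111 CPM, LTED-B 77.6, 77.2 and 85 CPM, LTED-D 72.5, 67.1 and 70.9 CPM and LTED-E 52.3, 49.4 and 50.3 CPM. HK2 rose 2.62-fold in LTED-A, 1.95-fold in LTED-B and 1.73-fold in LTED-D, and was 1.24-fold higher in LTED-E. It also rose in SUM44 LTED-B, to 89, 95.2 and 85.4 CPM from 49.7, 48 and 41.7 CPM in SUM44F (log2 0.95 ± 0.08, edgeR adjusted p = 5.56e-06). HK1, the constitutive hexokinase, was at 210 to 374 CPM in every library and was called nowhere. For the 40 neighbors of HK2, the median was 0.33 in SUM44 LTED-B and 0.14 in MM134 LTED-A.

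PFKP, the platelet-type phosphofructokinase, had the largest fold change among the glycolytic enzymes. It was at 1.34, 1.56 and 1.10 CPM in MM134 parental cells. LTED-A had 17.1, 15.9 and 16.9 CPM, LTED-B 10.9, 9.89 and 11 CPM, LTED-D 9.10, 8.84 and 8.06 CPM and LTED-E 15, 14.1 and 15.2 CPM. The lowest variant library was above the highest parental library. PFKP rose by 3.62 ± 0.09, 2.98 ± 0.10, 2.69 ± 0.10 and 3.46 ± 0.09 on the log2 scale in LTED-A, -B, -D and -E (largest edgeR adjusted p = 6.2e-14). In SUM44F it started at 80.2, 76.9 and 65.5 CPM and fell to 34.8 and 35.3 CPM in SUM44 LTED-A (log2 -1.08 ± 0.09, edgeR adjusted p = 5.94e-06), a call that was lost against SUM44PE (log2 -0.57). SUM44 LTED-B, at 65.8, 68.1 and 68.3 CPM, lay within the SUM44F range. The muscle isozyme PFKM fell in MM134 LTED-A and LTED-E (log2 -0.63 and -1.08), from 84.3 ± 1.23 CPM in parental cells to 54.8 ± 2.49 and 39.7 ± 0.345 CPM. PFKL, the liver isozyme and the most abundant of the 3 in MM134, was called in no MM134 variant, with log2 fold changes of 0.15 to 0.56. In SUM44 LTED-B it was at 0.55 and not called, and without SUM44F replicate 1 it was at 0.60 and called (edgeR adjusted p = 0.000886).

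ALDOC, an aldolase isozyme known from brain, rose in both SUM44 variants and fell in 2 MM134 variants. It was at 5.77, 6.27 and 4.65 CPM in SUM44F, at 11.2 and 12.1 CPM in SUM44 LTED-A and at 10.8, 10.9 and 10.5 CPM in SUM44 LTED-B. The rise was 2.11-fold and 1.94-fold (edgeR adjusted p = 9.08e-05 and 9.05e-05). In MM134 it fell from 17.7, 18.7 and 18.6 CPM to 10.1, 10.7 and 10.4 CPM in LTED-A and to 7.48, 8.17 and 9.03 CPM in LTED-E. LTED-D, at 16.6, 17.9 and 18.8 CPM, overlapped the parental libraries. The remaining enzymes, GPI, TPI1, PGK1, PGAM1 and PKM, were called in no variant against MM134 parental cells or SUM44F. Their log2 fold changes lay between -0.27 (PGAM1 in MM134 LTED-B) and 0.61 (GPI in SUM44 LTED-A, edgeR adjusted p = 0.00164). For GPI in SUM44 LTED-A, the median of its 40 neighbors was 0.43.

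Per kilobase of the canonical transcript, the isozymes' shares of their family moved with these changes. PFKP made up 0.67% ± 0.114 of the phosphofructokinase transcripts in MM134 parental cells (SD, n = 3) and 7.35%, 5.3%, 3.76% and 6.32% in LTED-A, -B, -D and -E. PFKL held the largest share in MM134, 63.3% to 79.2%. In SUM44F, PFKP held 28.4%, which was 13.8% in SUM44 LTED-A. ENO2 went from 11.1% ± 0.346 of enolase in MM134 parental cells to 1.31% ± 0.0117 in LTED-E. HK2 went from 10.3% of hexokinase to 21.8% in MM134 LTED-A, and from 8.24% in SUM44F to 13.8% in SUM44 LTED-B. SLC2A1 made up 85.9% to 99.6% of the 3 glucose transporters in MM134, but 22.3% to 38.6% in SUM44, where SLC2A10 held 59.1% to 77.3%. With the length of all exons in place of the canonical transcript, the highest isozyme was the same in 53 of 63 pairs of family and group, and those that differed were all 9 groups of the PDK family and SUM44F for phosphofructokinase. No test was run on the shares.

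**Figure D2:**
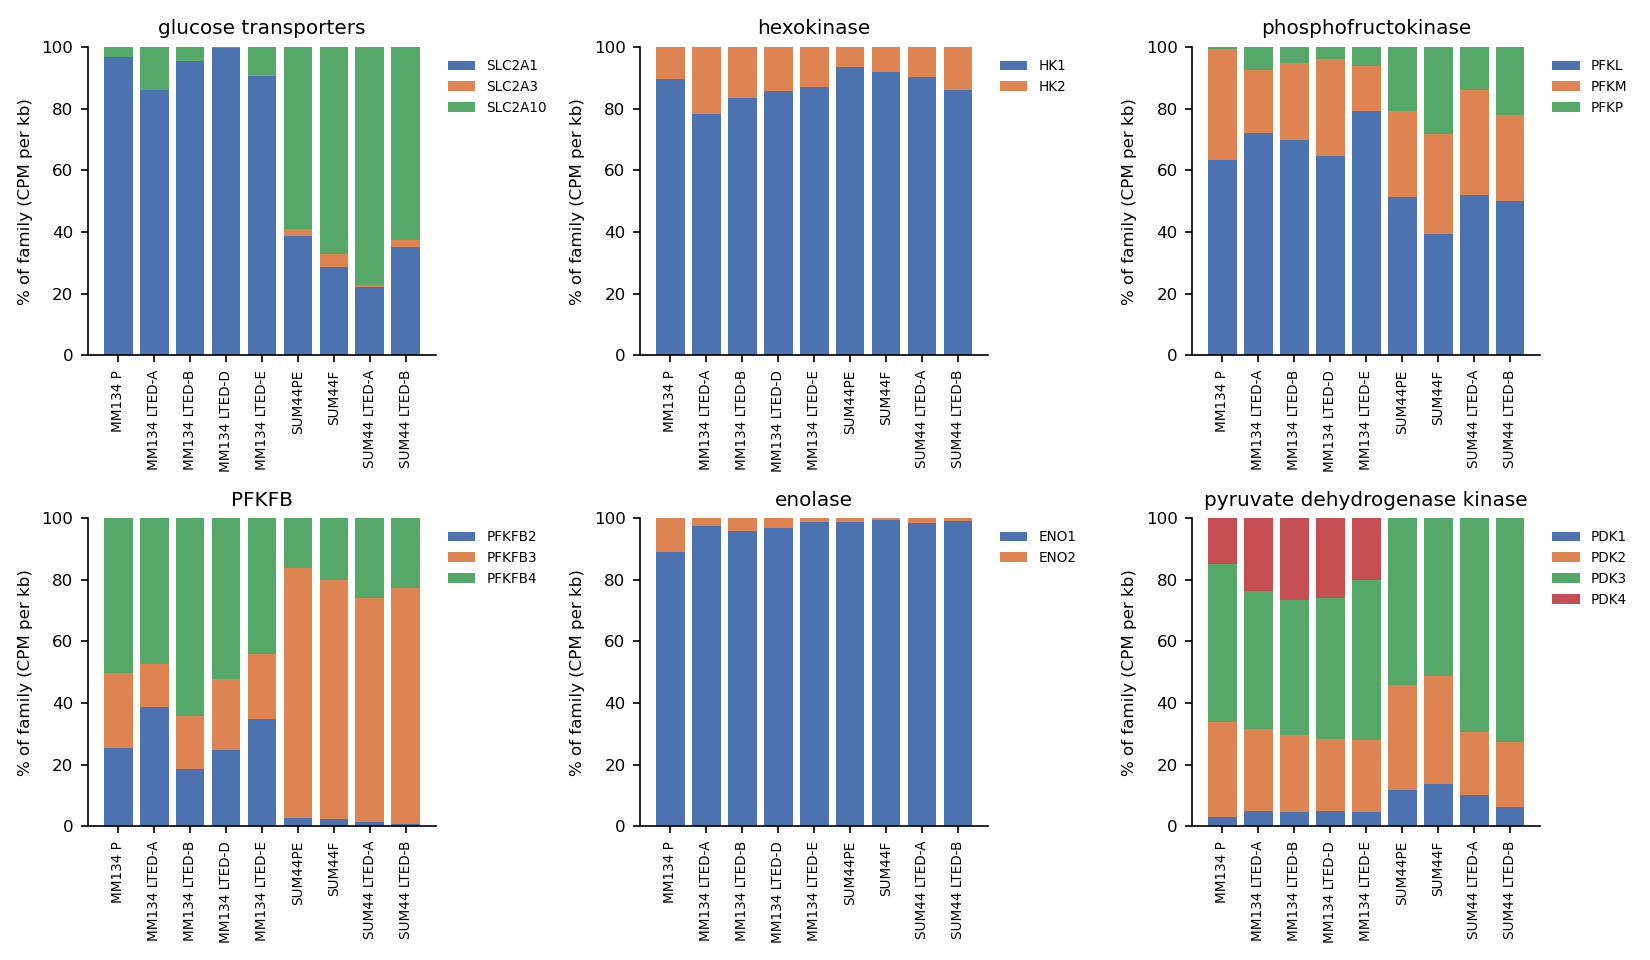
Share of each isozyme in its family (percent of the summed CPM per kilobase of canonical transcript, mean over libraries) in the 9 groups, 1 panel per family. PFKP is a thin band in MM134 parental cells (0.67%) and wider in the 4 variants, and ENO2 is widest in MM134 parental cells (11.1%).

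The PFKFB enzymes, which make and break fructose 2,6-bisphosphate, fell where they were called, and no rise was called. PFKFB3, the form with the strongest kinase activity, was at 11.9, 11.6 and 11.8 CPM in MM134 parental cells. LTED-A had 5.48, 6.24 and 6.62 CPM, LTED-B 5.22, 5.50 and 6.24 CPM, LTED-D 8.03, 7.46 and 7.94 CPM and LTED-E 6.99, 6.90 and 7.19 CPM. Every variant library was below the parental libraries. PFKFB3 fell in LTED-A, -B and -E, with log2 fold changes of -0.96 ± 0.07, -1.06 ± 0.08 and -0.74 ± 0.07. In LTED-D it was just inside the limit (log2 -0.58 ± 0.08, edgeR adjusted p = 2.64e-06), and it was called there when any of 3 libraries was left out: parental replicate 2 (log2 -0.59), LTED-D replicate 1 (log2 -0.60) or LTED-D replicate 3 (log2 -0.59). PFKFB3 was higher in SUM44, at 34.4 to 65.4 CPM, and was called in neither variant against SUM44F. PFKFB2 fell in MM134 LTED-B, from 19.3 ± 1.60 to 9.85 ± 0.453 CPM, and in SUM44 LTED-B, from 2.02 ± 0.281 to 0.647 ± 0.188 CPM. In MM134 LTED-A, PFKFB2 was above the parental libraries (28.4, 26.9 and 26 CPM against 21, 19 and 17.8 CPM) but was not called. The SUM44 LTED-B call was lost without its replicate 1 (log2 -1.56, edgeR adjusted p = 0.00151) or replicate 3 (log2 -1.51, adjusted p = 0.00179). PFKFB4 was called in MM134 LTED-E only among the 6 variants, as lower (log2 -0.71). In SUM44 LTED-A it was at 10.3 and 11.1 CPM, above SUM44F (10.1, 9.29 and 7.52 CPM) and not called. By length, PFKFB4 held the largest share of the family in MM134 (44.2% to 64.3%) and PFKFB3 in SUM44 (72.7% to 81.2%).

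At the lactate step, the transporter changed by far more than the dehydrogenase LDHA. SLC16A1 (MCT1), which carries lactate and other monocarboxylates across the plasma membrane, was at 30.5, 27.4 and 30.9 CPM in MM134 parental cells. LTED-A had 1.58, 1.87 and 1.65 CPM, LTED-B 1.58, 1.25 and 1.24 CPM, LTED-D 3.16, 4.27 and 3.74 CPM and LTED-E 3.68, 3.90 and 3.75 CPM. The highest variant library was far below the lowest parental library. SLC16A1 fell in all 4, with log2 fold changes of -4.13 ± 0.10, -4.44 ± 0.11, -2.97 ± 0.10 and -2.96 ± 0.09 (largest edgeR adjusted p = 8.66e-15), or 7.78-fold to 21.7-fold. In SUM44 it fell from 71.8, 72.5 and 69.6 CPM in SUM44F to 22.9 and 27.9 CPM for LTED-A and to 35, 34.6 and 34.6 CPM for LTED-B (2.80-fold and 2.06-fold, edgeR adjusted p = 5.63e-07 and 1.93e-06). SUM44PE, which is parental as well, had 34.2, 36.6 and 36.3 CPM, and SUM44 LTED-B was not called against SUM44PE (log2 -0.01 ± 0.07, edgeR adjusted p = 0.9).

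LDHA, which reduces pyruvate to lactate, was at 337 to 613 CPM in every library. Its log2 fold changes were 0.21 to 0.49 in MM134 and -0.40 and -0.33 in SUM44 LTED-A and -B, all under the 1.5-fold limit. LDHB, the isozyme that favors the reverse reaction in textbook accounts, was all but absent. It had 0 counts in 17 of the 26 samples and 3 or fewer in 24 of them. A count of 210 (4.55 CPM) in SUM44F replicate 1 and a count of 9 (0.291 CPM) in MM134 parental replicate 3 were the exceptions. SUM44F replicates 2 and 3 had 0, and SUM44F replicate 1 is the library that carried 231 CPM of the fibroblast markers COL1A1, COL3A1 and PDGFRB. MM134 parental replicate 3 had the highest sum of these markers in MM134, 28.7 CPM against 19.5 and 22.6 CPM in the other parental libraries. It stood apart in COL3A1 (5.54 CPM against 0.114 and 0.0539 CPM) and not in COL1A1 (22.6 CPM against 19.2 and 22.4 CPM). MM134 LTED-D replicate 2 had 5.22 CPM of COL3A1 and 2 LDHB counts, the only ones of its group. MM134 LTED-A replicates 1 and 3 had 2 and 1 LDHB counts at 0.17 and 0 CPM of COL3A1. Whether the marker signal and the LDHB counts have 1 source was not tested. LDHA made up 99.4% to 100% of the pair by length in each group.

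**Figure D3:**
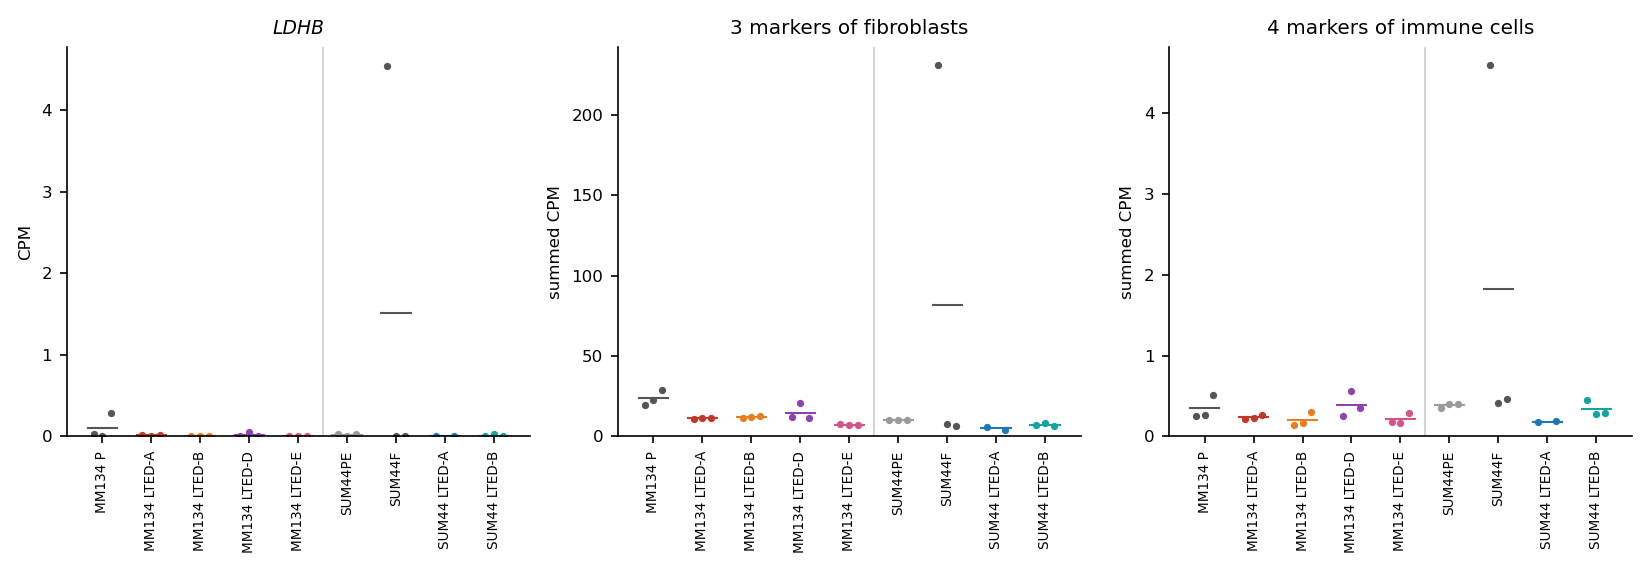
CPM of LDHB and summed CPM of 3 fibroblast and 4 immune markers in each sample, with the group mean as a line; linear axes from 0. A single SUM44F library (replicate 1) is at 4.55 CPM for LDHB, 231 CPM for the fibroblast markers and 4.6 CPM for the immune markers, and the other samples lie near the axis.

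Among the pyruvate dehydrogenase kinases, which switch off entry of pyruvate into the citric acid cycle, PDK1 and PDK4 rose in MM134 and PDK3 in SUM44. PDK1, a known hypoxia target, was at 11.7, 11.8 and 12 CPM in MM134 parental cells. LTED-A had 20.3, 19.8 and 19.7 CPM, LTED-B 21.2, 18.3 and 20.6 CPM, LTED-D 20.3, 20.3 and 21.2 CPM and LTED-E 15.5, 16.5 and 16.8 CPM. PDK1 rose 1.68-fold, 1.70-fold and 1.76-fold in LTED-A, -B and -D and was 1.39-fold higher in LTED-E. PDK4, the isoform known for fasting and fatty acid use, was at 14.3, 15.9 and 14.7 CPM in parental cells. It was at 25.4, 24.2 and 24.4 CPM in LTED-A, at 29.6, 29.9 and 31.9 CPM in LTED-B, at 28.4, 28.1 and 26.6 CPM in LTED-D and at 18.7, 17.6 and 18.4 CPM in LTED-E. The rise was 1.64-fold, 2.04-fold and 1.86-fold in LTED-A, -B and -D, and LTED-E was 1.22-fold higher. In LTED-D the neighbors of PDK4 (40 genes) had a median of 0.36 on the log2 scale, beside 0.89 for PDK4. In all SUM44 libraries PDK4 was at 0.108 CPM or less.

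PDK3 was at 15.1, 15.2 and 16.8 CPM in SUM44F, at 32.3 and 31.6 CPM in SUM44 LTED-A and at 38.4, 36 and 34.2 CPM in SUM44 LTED-B. The SUM44 variants did not overlap with SUM44F or with SUM44PE (18.2, 18.6 and 20 CPM). PDK3 rose by 1.02 ± 0.09 and 1.20 ± 0.08 on the log2 scale (edgeR adjusted p = 5.92e-06 and 7.58e-07). In MM134 its level stayed between 22.1 and 25.9 CPM, and it was called in no variant. PDK2 (15.9 to 29.4 CPM) and the subunits PDHA1 (56 to 81.9 CPM) and PDHB (65.3 to 111 CPM) of the pyruvate dehydrogenase complex were called in no LTED variant of either line. The largest of their log2 fold changes was -0.54, for PDK2 in MM134 LTED-E.

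The 2 hypoxia factor genes differed. HIF1A was at 128 to 165 CPM in MM134 and was called in no MM134 variant, with log2 fold changes from -0.28 to -0.09. EPAS1, which encodes HIF-2 alpha, was at 27.2, 27.5 and 25.7 CPM in MM134 parental cells. LTED-A had 129, 131 and 136 CPM, LTED-B 75.9, 76.3 and 77 CPM, LTED-D 68.6, 70.7 and 72.8 CPM and LTED-E 74.6, 71.3 and 76.9 CPM. EPAS1 rose by 2.29 ± 0.04, 1.52 ± 0.04, 1.41 ± 0.04 and 1.48 ± 0.04 on the log2 scale, or 2.66-fold to 4.91-fold (largest edgeR adjusted p = 2.95e-16). Per kilobase, the EPAS1 level went from 5.19 to 25.6 CPM per kb in MM134 LTED-A, where HIF1A was at 38.4 CPM per kb. In SUM44, EPAS1 was at 27.7 to 43.8 CPM and was called in neither variant. HIF1A rose there in LTED-B, from 138, 138 and 130 CPM in SUM44F to 235, 228 and 231 CPM (log2 0.77 ± 0.08, edgeR adjusted p = 2.57e-05), but was not called against SUM44PE (log2 0.57). In SUM44 LTED-A it was at 172 and 208 CPM (log2 0.49 ± 0.09, edgeR adjusted p = 0.00146), which was called when LTED-A replicate 1 was left out (log2 0.66, adjusted p = 0.000189), with a single sample of the variant remaining.

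The known hypoxia targets did not move as a block. CA9 and EGLN3 rose in all 4 MM134 variants, NDRG1 fell in all 4, VEGFA rose in 2, ADM fell in 2 and BNIP3 was called in none. EGLN3 (PHD3), an oxygen-dependent prolyl hydroxylase, was at 8.69, 9.2 and 10.7 CPM in MM134 parental cells. LTED-A had 103, 104 and 107 CPM, LTED-B 40, 41.9 and 43.9 CPM, LTED-D 85.6, 84.2 and 87.2 CPM and LTED-E 119, 119 and 118 CPM. EGLN3 rose 11-fold, 4.43-fold, 9.12-fold and 12.6-fold (log2 3.46, 2.15, 3.19 and 3.66, each ± 0.05, largest edgeR adjusted p = 1.44e-16). In SUM44 it fell in both variants, from 29, 29.4 and 26 CPM in SUM44F to 13.8 and 16.7 CPM (LTED-A) and to 5.06, 4.92 and 5.47 CPM (LTED-B). The log2 fold changes were -0.88 ± 0.11 and -2.45 ± 0.10 (edgeR adjusted p = 0.00012 and 3.32e-08). The LTED-A call was lost without SUM44F replicate 2 (adjusted p = 0.00102) or without SUM44 LTED-A replicate 1, with 1 sample remaining (log2 -0.71, adjusted p = 0.00189).

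CA9, a carbonic anhydrase of the cell surface that is used as a marker of hypoxia, was low throughout. MM134 parental cells had 0.0572, 0.0270 and 0.0324 CPM, or 4 counts in the 3 libraries together. LTED-A had 3.34, 3.8 and 4.02 CPM (754 counts), LTED-B 0.673, 0.755 and 0.870 CPM (96 counts), LTED-D 0.613, 0.954 and 0.627 CPM (80 counts) and LTED-E 0.963, 0.678 and 0.971 CPM (121 counts). All variant libraries exceeded the parental libraries. The ratio of summed counts, scaled to library size, was 93.6 for LTED-A (exact 95% interval 36.4 to 344, counting error only). For LTED-B it was 19.7 (7.43 to 73.6), for LTED-D 18.8 (7.05 to 70.6) and for LTED-E 22.4 (8.52 to 83.4). The edgeR adjusted p was at most 4.87e-08. In SUM44 the gene stayed at or under 0.239 CPM, with 36 counts in SUM44F, 1 in LTED-A and 20 in LTED-B.

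NDRG1, a stress-responsive gene that many cells induce under hypoxia, fell in MM134. It was at 6.23, 8.41 and 7.74 CPM in parental cells, at 1.32, 1.09 and 1.13 CPM in LTED-A, at 1.16, 0.897 and 0.771 CPM in LTED-B, at 1.13, 1.43 and 1.42 CPM in LTED-D and at 0.222, 0.212 and 0.233 CPM in LTED-E. The variants lay below the parental libraries without overlap. The log2 fold changes of NDRG1 were -2.64 ± 0.14, -2.97 ± 0.15, -2.47 ± 0.15 and -5.04 ± 0.19 (largest edgeR adjusted p = 8.42e-11). In SUM44F it was far higher, at 104, 101 and 74.4 CPM, and it fell in SUM44 LTED-B to 33.6, 35.8 and 33.8 CPM (2.71-fold, edgeR adjusted p = 3.29e-06). SUM44 LTED-A had 73.9 and 77.2 CPM, which overlapped SUM44F.

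VEGFA, the vascular growth factor, rose in MM134 LTED-A, to 68.4, 68.2 and 69 CPM, and in LTED-E, to 63.8, 64.2 and 66 CPM, from 34.5, 37.4 and 34.2 CPM in parental cells. LTED-D, at 34.5, 36.5 and 38.3 CPM, overlapped the parental libraries. In SUM44 the 2 variants went in opposite directions, with 121 and 126 CPM for LTED-A and 48.4, 49.6 and 49.3 CPM for LTED-B against 73.5, 78.7 and 72.3 CPM in SUM44F (log2 0.72 ± 0.07 and -0.61 ± 0.06, edgeR adjusted p = 1.21e-05 and 1.73e-05). The LTED-B value was close to the 1.5-fold limit and was lost without SUM44F replicate 2 (log2 -0.57, adjusted p = 0.00025). Against SUM44PE the rise in LTED-A was not called (log2 0.39), whereas LTED-B was lower (log2 -0.95). ADM, the peptide hormone adrenomedullin, fell in MM134 LTED-B and LTED-D from 3.96 ± 0.327 to 1.79 ± 0.305 and 1.60 ± 0.167 CPM. BNIP3, a mitophagy receptor, was at 64.4 to 109 CPM in all libraries.

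**Figure D4:**
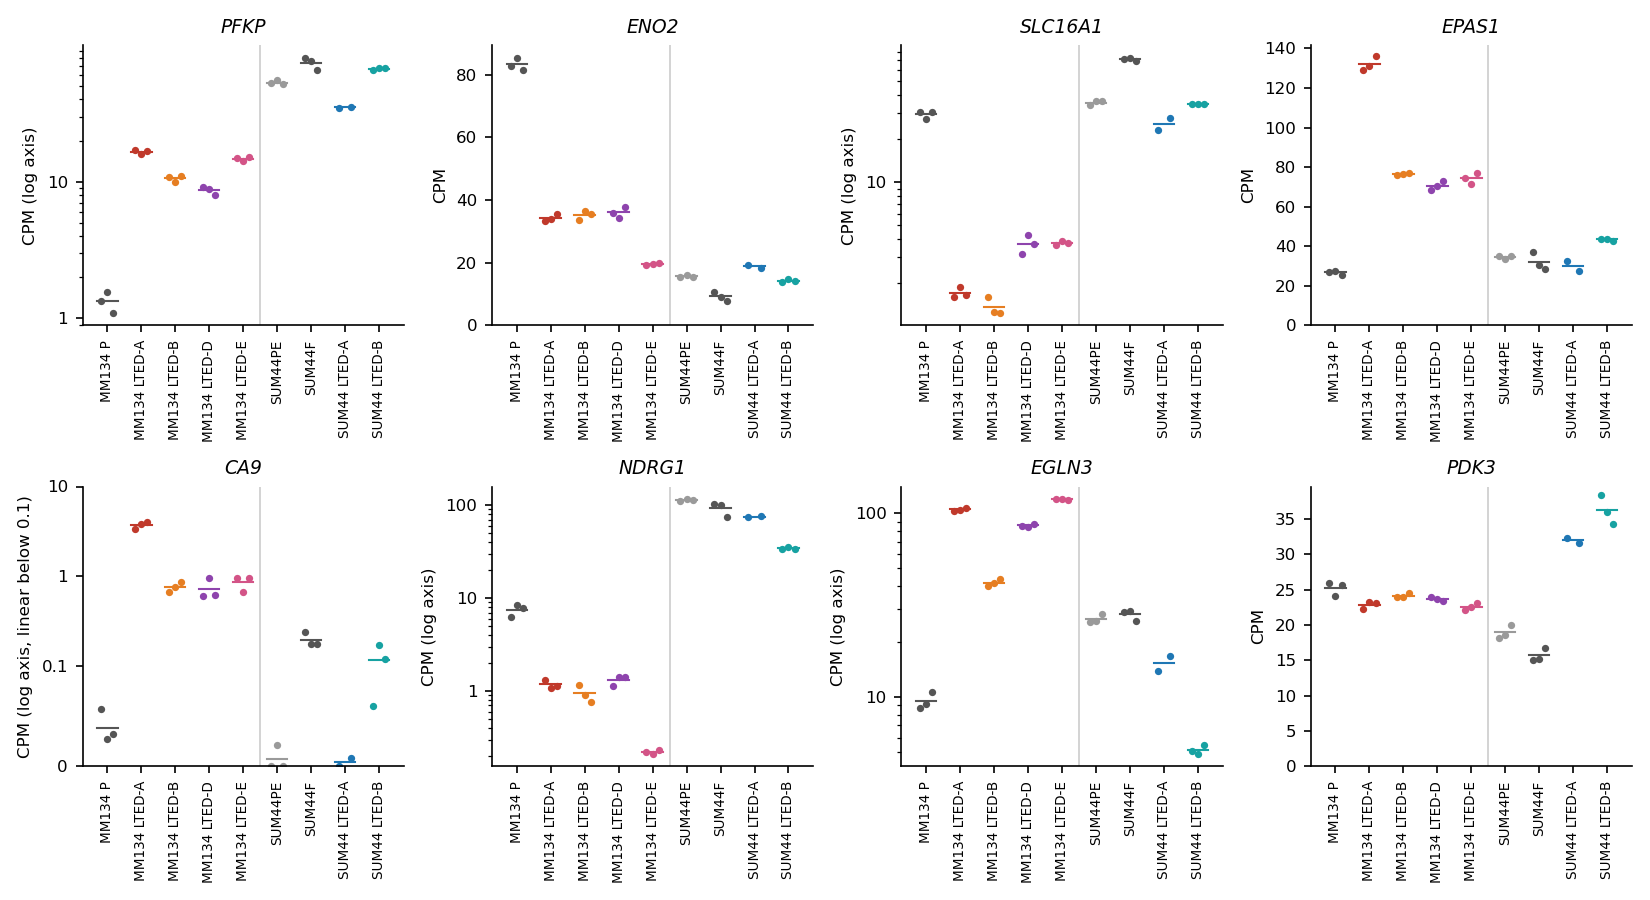
CPM of 8 members in every sample (points) with the group mean (line), MM134 groups left of the grey line and SUM44 groups right of it; axes are logarithmic except for ENO2, EPAS1 and PDK3, which start at 0, and the CA9 axis is linear below 0.1 CPM. SLC16A1 drops from 27.4 CPM or more in MM134 parental cells to 4.27 CPM or less in the variants, and EGLN3 is above its parental level in MM134 variants and below it in SUM44 variants.

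The 4 MM134 variants also differed from each other. An F-test over the differences between the variants, which uses no parental contrast, called 17 of 36 members with a largest pairwise fold change above 1.5, where 19.6% of all tested genes were called. The largest spread was that of SLC2A10, 25-fold between LTED-A and LTED-D. NDRG1 followed at 5.94-fold, with LTED-E lowest, and CA9 at 4.99-fold, with LTED-A highest. EGLN3 differed by 2.85-fold, SLC16A1 by 2.79-fold and PFKFB2 by 2.74-fold. PFKM, ALDOC and VEGFA separated LTED-A and LTED-E from LTED-D, with largest fold changes of 2.17, 2.16 and 1.85. The genes that rose or fell in all 4 variants, PFKP, ENO2, SLC16A1, EPAS1, CA9, NDRG1 and EGLN3, were each called for a difference in size as well. How often this holds among all genes called in all 4 was not computed. PDK3 was the member with the smallest spread between variants (1.06-fold).

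Between SUM44 LTED-A and LTED-B, 5 members were higher in LTED-A (SLC2A10, PDK1, VEGFA, NDRG1 and EGLN3), where 3.56% of all genes were, and 3 were lower (SLC2A3, HK2 and PFKP), where 3.86% were. The largest differences were those of EGLN3 (2.96-fold), SLC2A3 (2.62-fold), SLC2A10 (2.58-fold) and VEGFA (2.52-fold). Of the 5 hypoxia targets tested, VEGFA, NDRG1 and EGLN3 were higher in LTED-A. Without SUM44 LTED-A replicate 1, 5 of the 8 calls remained, with a single sample of that variant whose spread is taken from the other groups, and those of HK2 (adjusted p = 0.00108), PFKP (0.00121) and NDRG1 (0.00158) were lost by edgeR. The PDK1 call, at 1.54-fold, was lost without SUM44 LTED-B replicate 2 (adjusted p = 0.00135) or replicate 3 (adjusted p = 0.00141).

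The parental cultures of SUM44 differed at 3 members. ENO2 was higher in SUM44PE than in SUM44F (1.70-fold, edgeR adjusted p = 0.000201), where 2.85% of all genes were higher, and SLC2A3 (2.13-fold) and SLC16A1 (2.01-fold) were lower, where 2.72% were. The ENO2 call was lost without SUM44PE replicate 2 (adjusted p = 0.00164), SUM44PE replicate 3 (0.00118) or SUM44F replicate 2 (0.00109). These genes were also among those called in SUM44 variants against SUM44F, in the same direction. SUM44PE was therefore used in place of SUM44F in a comparison chosen after the data were seen. Against SUM44PE, 5 of 34 members were higher in SUM44 LTED-A (7.05% of all genes) and 4 lower (7.27%), and 6 were higher in SUM44 LTED-B (10.5%) and 5 lower (9.72%). ALDOC, GAPDH and PDK3 were higher in both variants against SUM44PE, and PFKFB2, PFKFB3 and EGLN3 were lower in both. PDK3 was higher by 0.79 ± 0.08 and 0.96 ± 0.07 on the log2 scale, ALDOC by 0.94 ± 0.12 and 0.81 ± 0.11, and EGLN3 was at -0.76 ± 0.10 and -2.33 ± 0.10. ALDOC, PDK3 and EGLN3 were thus called in both variants with either parental culture. The SLC16A1 call was lost in both (log2 -0.45 and -0.01, edgeR adjusted p = 0.000807 and 0.9), that of SLC2A3 was kept in LTED-A (log2 -1.20) and lost in LTED-B (log2 0.18), and ENO2 was called in neither (log2 0.30 and -0.11). The calls of PFKP and VEGFA in LTED-A and of HIF1A in LTED-B were lost as well. Those of PFKP (log2 -0.57) and HIF1A (log2 0.57) were lost just inside the fold limit. Members called against SUM44PE but not SUM44F were GPI (log2 0.79) and PFKFB2 in LTED-A, PGK1 (0.78) and PGAM1 (0.83) in LTED-B, and GAPDH and PFKFB3 in both.

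The mean LTED change differed between the cell lines for 16 of the 37 members. The test was the interaction in a fit of all groups but SUM44PE, the mean log2 change over the MM134 variants less the mean over the SUM44 variants. It called 9 members as higher in MM134, where 10.8% of 29200 genes were, and 7 as lower, where 10.2% were. The largest difference apart from CA9 was that of EGLN3, with a mean log2 change of 3.11 ± 0.06 in MM134 and -1.65 ± 0.06 in SUM44 (difference 4.75 ± 0.09, edgeR adjusted p = 4.19e-21). PFKP came next, at 3.18 ± 0.09 and -0.61 ± 0.06. ENO2 was at -1.46 ± 0.05 and 0.85 ± 0.07 and ALDOC at -0.63 ± 0.06 and 1.02 ± 0.08. These 4 genes were called in opposite directions in the 2 lines, as was CA9 on few SUM44 counts (4.81 and -2.58). CA9 and PDK4 were too low to be tested in the SUM44 fit and entered this fit through the MM134 libraries. Their SUM44 side is therefore no separate result. The SUM44 side uses SUM44F as the parental culture, and against SUM44PE neither PFKP nor ENO2 was called. PFKP was then at log2 -0.57 in LTED-A, just inside the fold limit, and at 0.37 in LTED-B. SLC16A1 and NDRG1 fell in both lines and by more in MM134, at -3.63 against -1.26 and at -3.28 against -0.87. Against SUM44PE, however, SLC16A1 was called in neither SUM44 variant (log2 -0.45 in LTED-A and -0.01 in LTED-B). NDRG1 was called in SUM44 LTED-B and not in LTED-A. PDK3 and HIF1A rose in SUM44 alone (1.11 and 0.63, against -0.12 and -0.18), and EPAS1 and PDK1 rose in MM134 alone (1.67 and 0.69, against 0.16 and -0.12), each with the difference itself called. The interaction of PFKFB3 was lost without SUM44F replicate 3 (log2 -0.61 to -0.53), and the one of PDK4, which rests on a few counts per SUM44 library, as well (adjusted p = 0.00298). The LDHA interaction (0.67 ± 0.06) came from changes of 0.31 and -0.36, neither of which passed the fold limit in its line. Without SUM44F replicate 1 the interaction was also called for PFKM (log2 -0.58 to -0.62) and PFKFB4 (-0.50 to -0.61), and without SUM44F replicate 3 for ENO1 (0.57 to 0.69).

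**Figure D5:**
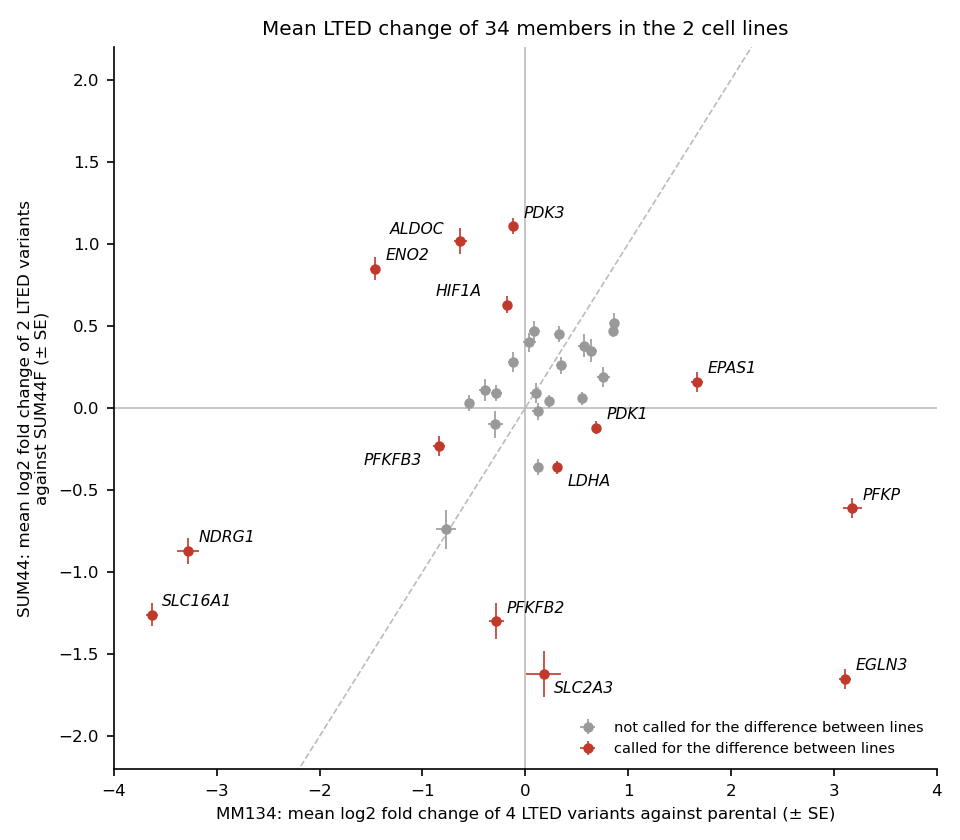
Mean log2 fold change of the 4 MM134 LTED variants (horizontal) against that of the 2 SUM44 LTED variants (vertical) for 34 members, with SE bars; LDHB, CA9 and PDK4 are left out because SUM44 has few counts of them. Red points were called for the difference between lines; EGLN3 (3.11 and -1.65) and PFKP (3.18 and -0.61) lie at the lower right, and ENO2 (-1.46 and 0.85) and ALDOC (-0.63 and 1.02) at the upper left.

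The hormone-deprived parental cells of the 2 lines already differed at 23 of 37 members. In MM134, 9 members were higher than in SUM44F, where 18.9% of all genes were, and 14 were lower, where 19.2% were. PDK4 (158-fold, with 17 counts over SUM44F), PFKFB2 (9.47-fold), ENO2 (9.02-fold) and SLC2A1 (6.85-fold) were the most higher in MM134. PFKP (55.6-fold), NDRG1 (12.6-fold), SLC2A10 (10.7-fold) and SLC2A3 (9.87-fold) were the most lower. Of the hypoxia targets, 5 of 6 were lower in MM134 parental cells (VEGFA, CA9, NDRG1, BNIP3 and EGLN3), and HIF1A and EPAS1 were called in neither direction. The CA9 call, on 4 counts against 36, was lost when any of MM134 parental replicates 1 to 3 (adjusted p = 0.00123, 0.00643 and 0.00317) or SUM44F replicate 1 (0.00169) was left out. Without SUM44F replicate 3 the calls of HK1 (log2 -0.64), TPI1 (-0.64) and GAPDH (-0.59) were gained and that of PGAM1 (0.54) was lost.

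Other genes of the same pathways were read from 8 lists with 79 genes, of which 71 were tested in MM134 and 73 in SUM44. In MM134 LTED-A, -B, -D and -E, 16, 10, 14 and 13 of the 71 rose and 8, 4, 4 and 8 fell, beside the shares of all genes given above. In SUM44 LTED-A and -B, 11 and 18 of the 73 rose, beside 6.39% and 8.69% of all genes. There 7 and 10 fell, beside 7.28% and 8.57% of all genes. Among the other glycolytic enzymes, ALDOA, the main aldolase outside liver and brain, rose in all 4 MM134 variants, from 295 ± 11 CPM to 522 ± 3.73 to 678 ± 41.6 CPM. In the pentose phosphate list, whose enzymes make NADPH, 4, 2, 1 and 4 of 7 genes rose in MM134 LTED-A, -B, -D and -E. None fell. Of all genes, 10.5%, 8.11%, 9.63% and 8.71% rose there and 7.75% to 10.3% fell. TKT, which links the pentose phosphate pathway to glycolysis, rose in MM134 LTED-A, -B and -E and in SUM44 LTED-B.

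Of the genes for pyruvate entry and the dehydrogenase complex, 3, 2, 2 and 2 of 8 rose in the MM134 variants and none fell. Of all genes, 10.5%, 8.11%, 9.63% and 8.71% rose in these variants. MPC1, a subunit of the mitochondrial pyruvate carrier, rose in all 4, from 25.6 ± 0.418 CPM to 44.7 ± 0.795 to 86 ± 0.986 CPM, and fell in SUM44 LTED-B (log2 -0.80 ± 0.09, edgeR adjusted p = 6.13e-05). PDP1, a phosphatase that reverses the action of the PDK kinases, rose in MM134 LTED-A and -B (log2 1 and 0.69). It fell in both SUM44 variants against SUM44F (-0.86 and -1.16). SUM44F had 29 ± 0.426 CPM of PDP1 and SUM44PE 19.3 ± 0.797 CPM, beside 15.9 ± 2.75 and 12.9 ± 0.35 CPM in SUM44 LTED-A and -B. The gluconeogenesis list had 3 and 4 of 7 genes higher in SUM44 LTED-A and -B, where 6.39% and 8.69% of all genes were. PCK2, the mitochondrial enzyme that makes phosphoenolpyruvate, was among them, at 31.2 ± 2.77 CPM in SUM44F and 46.4 ± 1.66 CPM in SUM44PE. It was higher in LTED-A (104 ± 3.8 CPM) and LTED-B (96.4 ± 3.22 CPM). Of the other sugar and lactate transporters, SLC2A12 (GLUT12) fell from 4.78 ± 0.345 CPM in SUM44F to 0.0466 ± 0.00395 and 0.112 ± 0.0346 CPM in SUM44 LTED-A and -B. SUM44PE had 0.399 ± 0.0642 CPM of SLC2A12.

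The glucose-sensing genes included TXNIP, which limits glucose uptake and whose transcription follows glucose. It was at 260 ± 12.2 CPM in MM134 parental cells, at 119 ± 1.57 CPM in LTED-A, 284 ± 7.61 CPM in LTED-B and 112 ± 0.483 CPM in LTED-E. In LTED-D it was at 0.397 ± 0.347 CPM (log2 -9.38 ± 0.13, edgeR adjusted p = 5.28e-20), the variant in which SLC2A10 was also lowest and SLC2A1 highest (781 CPM). SLC2A1 did not follow TXNIP over the other variants, at 711 CPM in LTED-B and at 348 and 449 CPM in LTED-A and -E. A link between these genes was not tested. In the oxygen-sensing list, 0 to 2 of 7 genes were called per direction and variant, beside 6.39% to 10.5% of all genes. ARNT2, a partner subunit of HIF factors, fell in MM134 LTED-A and -E (log2 -1.22 and -1.70) and rose in both SUM44 variants (2.18 and 2.80). Of 20 other hypoxia targets, 3, 3, 5 and 2 rose and 5, 3, 3 and 6 fell in MM134 LTED-A, -B, -D and -E. In SUM44 LTED-A and -B, 4 and 5 rose and 2 and 3 fell. Of all tested genes, 8.11% to 10.5% rose and 7.75% to 10.3% fell over the MM134 variants. In SUM44 LTED-A and -B, 6.39% and 8.69% of all genes rose and 7.28% and 8.57% fell. STC2, a secreted glycoprotein, fell in the 4 MM134 variants (log2 -4.21 to -1) and rose in both SUM44 variants against SUM44F (2.88 and 2.53). SUM44F had 73.5 ± 6.23 CPM of STC2, whereas SUM44PE had 372 ± 21.2 CPM, beside 540 ± 26.7 and 426 ± 12.8 CPM in SUM44 LTED-A and -B. ERO1A, an oxidase of the endoplasmic reticulum, rose in MM134 LTED-A, -D and -E and in both SUM44 variants (log2 0.71 to 0.98).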

How the data were processed

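RNA from 27 libraries was sequenced after stranded total RNA preparation. The authors quantified reads against Ensembl release 82 (hg38) with Salmon 0.6.0 and deposited estimated counts per gene, not normalized; read trimming and the strand setting are not given in the sources used here. Each library's column was matched by its name to a sample title, and 0 columns belonged to no sample of this series. Symbols were taken from GENCODE release 44 by Ensembl identifier, which matched 56434 of 60619 genes. The 37 members and the other lists were chosen with earlier results of these data known.

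Estimated counts were rounded. SUM44 LTED-A replicates 2 and 3 entered as their mean. Groups were compared with the quasi-likelihood F-test of edgeR 4.0.16 in R 4.3.3, with TMM scaling, the filterByExpr filter on low counts and Benjamini-Hochberg adjustment over all tested genes. MM134 (26061 genes), SUM44 with SUM44F (26834), SUM44 with both parental cultures (27457) and all groups but SUM44PE (29200) had a fit each. A change was called above 1.5-fold at an adjusted p below 0.001, the limits the authors used. The tests were two-sided and were first run on simulated counts. Same-numbered replicates did not deviate together (median correlation -0.0186 in MM134 and -0.117 in SUM44), so no pairing was used. The CA9 folds in MM134, given as ratios of summed counts, have exact 95% intervals, which cover counting error only. The PDK4 fold between the parental lines has no interval.

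Values are given for each member called in 3 or more of the MM134 variants, in both of SUM44, in opposite directions or between the lines, and of the other lists at most 3 genes each were named; some genes of those lists are not reported here. Alternatives were RLE scaling, DESeq2 1.42.0, no low-count filter, a minimum count of 10, other fold and p limits, fits on fewer groups, the duplicates kept apart, a replicate block, each replicate left out and, added after the data were seen, SUM44PE as parental cells. Totals were 28583554 to 134882175 counts per library, so values under 1 CPM are the least precise. Reads of near-identical copies, such as the processed pseudogenes of GAPDH, PGK1, LDHA and PKM, may be split between genes by the quantification.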

Additional observations from a re-analysis of the deposited data

Results flagged for a closer look

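For 16 members the mean LTED change differed between the cell lines in the edgeR interaction test, which is why they are listed here; the value given for each is the mean log2 change of MM134 LTED variants less that of SUM44 LTED variants. In 5 of them the mean change was called in both lines, in opposite directions. EGLN3 differed by 4.75 (3.11 in MM134 and -1.65 in SUM44) and PFKP by 3.79 (3.18 and -0.61). ENO2 differed by -2.31 (-1.46 and 0.85) and ALDOC by -1.66 (-0.63 and 1.02). The fifth, CA9, differed by 7.39 (4.81 and -2.58) and rests on few counts in SUM44: 36 in SUM44F, 1 in SUM44 LTED-A and 20 in SUM44 LTED-B. CA9 was too low to be tested in the SUM44 fit and entered the fit of both lines through the MM134 libraries. Its SUM44 call is therefore no separate result.

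A second set fell in both lines, or in one, by unequal amounts. SLC16A1 had -2.37 (-3.63 and -1.26) and NDRG1 had -2.42 (-3.28 and -0.87). In SUM44, NDRG1 was called in LTED-B and not in LTED-A. SLC2A3 had 1.79 and PFKFB2 had 1.03, both from a fall in SUM44 (-1.62 and -1.30). PFKFB3 had -0.61, which was -0.53 and lost its call without SUM44F replicate 3. Against SUM44PE, the other parental culture, SUM44 LTED-A and -B had log2 fold changes of -0.45 and -0.01 for SLC16A1, and of -1.20 and 0.18 for SLC2A3. On that base ENO2 was at 0.30 and -0.11, neither called, so its SUM44 call rests on SUM44F. PFKP was at -0.57 and 0.37 and HIF1A at 0.30 and 0.57, not called either. PFKP in LTED-A and HIF1A in LTED-B missed only the 1.5-fold limit (edgeR adjusted p = 0.000142 and 3.22e-05).

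Members that rose in MM134 and were not called in SUM44 were EPAS1, at 1.51, and PDK1, at 0.81. Those that rose in SUM44 and were not called in MM134 were PDK3, at -1.23, and HIF1A, at -0.82. LDHA was at 0.67, from a change of 0.31 in MM134 and -0.36 in SUM44, both under the fold limit. PDK4 was at 2.71, with 17 counts in SUM44F, 1 in SUM44 LTED-A and 10 in SUM44 LTED-B. It too was too low to be tested in the SUM44 fit. Without SUM44F replicate 3, PDK4 was at 2.56 and no longer called (adjusted p = 0.00298, edgeR).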

How the results depend on the processing

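With the 1.5-fold limit left out, the number of called members was 26 in MM134 LTED-A, 27 in LTED-B, 30 in LTED-D, 26 in LTED-E, 34 for the difference among these variants, 24 in at least 3 of them, 6 for SUM44PE against SUM44F and 26 for the interaction; with a 2-fold limit it was 9 in MM134 LTED-A, 5 in SUM44 LTED-B, 11 among the MM134 variants, 8 in at least 3 of them, 5 for SUM44 LTED-A against LTED-B and 2 in both SUM44 variants. Fitting the parental cells with 1 variant alone left 3 members in both SUM44 variants. Leaving out a replicate gave 5 to 10 calls for SUM44 LTED-A against LTED-B (8 with all samples), the lowest without SUM44 LTED-A replicate 1 and the highest without the merged replicates 2 and 3; either leaves 1 sample of that variant, assumed to vary like the other groups. For the other counts these ranges were 17 to 17, 15 to 15, 15 to 16 and 14 to 15 in MM134 LTED-A, -B, -D and -E, 17 to 17 among them, 13 to 14 in at least 3, 8 to 10 and 8 to 12 in SUM44 LTED-A and -B, 4 to 6 in both, 2 to 3 between the SUM44 parental cultures, 22 to 25 between the parental lines and 15 to 18 for the interaction. RLE scaling, DESeq2, no low-count filter, a minimum count, an adjusted p of 0.05 and SUM44PE as parental cells, chosen after the data were seen, each kept every count within 1.5 times. With SUM44PE the counts held but the members called did not all stay the same. In SUM44 LTED-A, ENO2, VEGFA, PFKP and SLC16A1 were lost and GPI, GAPDH, PFKFB2 and PFKFB3 were gained. The replicate block moved 1 count, SUM44 LTED-A against LTED-B, from 8 to 7, and since same-numbered replicates did not deviate together (highest r 0.302 in MM134 and 0.14 in SUM44) it is given only here. Values near 0 changed sign for 4 results: SLC2A3 in MM134 LTED-B (-0.0015 with RLE, -0.003 with DESeq2, -0.0044 with no filter), ENO1 in SUM44 LTED-A (-0.01 with the block), PDK2 in SUM44 LTED-B (0.0028 with RLE, 0.0037 with DESeq2) and PKM in the interaction (-0.03 with RLE and with DESeq2). The calls of GAPDH in MM134 LTED-E (0.58) and of VEGFA in SUM44 LTED-B (-0.57) were lost with RLE and DESeq2, the former also with no filter. DESeq2 and no filter added SLC2A1, GPI and ADM in SUM44 LTED-A (12 and 13 calls against 9) and ENO2 in SUM44 LTED-B, no filter added PFKFB3 in MM134 LTED-D (-0.59), and RLE and DESeq2 added PFKM in the interaction (-0.62); the cause was not tested. Depth limits LDHB in both lines and CA9 and PDK4 in SUM44.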
